A study of Homo sapiens with 8 samples.

Results

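The genes described here encode the subunits of the mitochondrial respiratory chain and of ATP synthase, measured in the melanoma line COLO829, an established human line with an activating BRAF mutation. They were chosen by gene symbol: those starting with NDUFA, NDUFB, NDUFC, NDUFS or NDUFV (complex I), SDHA to SDHD (complex II), UQCR (complex III), COX4 to COX8 (complex IV) and ATP5 (complex V), with the NDUFAF assembly factors left out. This gave 82 of the 18404 genes measured by a probe set with exactly 1 gene symbol: 35 for complex I, 3 for complex II, 8 for complex III, 17 for complex IV and 19 for complex V. Of the 82, 70 are subunits in common use. The other 12 are 6 tissue isoforms (COX4I2, COX6A2, COX6B2, COX7A1, COX7B2 and COX8C), 3 genes that do not encode protein (NDUFV1-DT, UQCRBP1 and ATP5F1EP2), 2 associated proteins (ATP5IF1 and COX7A2L) and 1 paralog (ATP5MGL).

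The respiratory chain sits in the inner mitochondrial membrane. Complexes I and II pass electrons from NADH and succinate to ubiquinone, complex III passes them on to cytochrome c, and complex IV to oxygen; complexes I, III and IV pump protons, and ATP synthase, or complex V, uses the proton gradient to make ATP. Most subunits are encoded in the nucleus, and a few are encoded by mitochondrial DNA. In melanoma, MITF, the lineage transcription factor of melanocytes, is known to raise PPARGC1A, a coactivator that drives transcription of respiratory genes, and inhibition of mutant BRAF is known to raise both.

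Cells had been infected with the pGIPZ vector carrying a hairpin against MITF or a scrambled hairpin, and all of them were selected with puromycin for 2 days. They then received PLX4032 (vemurafenib, an inhibitor of mutant BRAF) at 1 µM, or DMSO, its solvent, for 24 h. Each of the 4 groups, either hairpin with either treatment, had 2 arrays, A and B. A single construct against MITF is named, no untransduced cells were measured, and the labels leave unsaid whether A and B came from different cultures. The p-values therefore weigh a change against the difference between arrays of a group, which may be technical. These are bulk RNA levels, in which fewer expressing cells and less RNA per cell cannot be told apart.

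Each level is a log2 probe set intensity, and the levels of different probe sets are not compared. Changes are log2 differences ± SE from 1 limma fit over all 8 arrays, and a gene rose or fell where the Benjamini-Hochberg adjusted p over 18404 genes was below 0.05. The typical SE was 0.0939 (median over genes), or 0.133 for the interaction, which is the difference between the PLX4032 changes of knockdown and scrambled cells. MITF itself fell by 0.93 on knockdown in DMSO and by 0.76 in PLX4032. It rose with PLX4032 in scrambled (0.39) and knockdown cells (0.56). With both perturbations it was lower than in untreated scrambled cells by 0.38, less than on knockdown alone. Averaged per array, the 6 melanocytic markers measured ranged from 8.81 to 10.90, 5 leukocyte markers from 4.09 to 4.40, 5 fibroblast markers from 6.05 to 6.23 and 4 keratinocyte markers from 4.58 to 4.77; without detection calls these ranges do not show which markers are expressed. Of the other melanocytic markers TYRP1 (-2.55), MLANA (-1.83) and PMEL (-0.80) fell on knockdown in DMSO. SOX10 (0.13) and TYR (0.23) did not pass there. With PLX4032 in scrambled cells MLANA (2.24), TYRP1 (2.07), TYR (0.75) and SOX10 (0.53) rose, and PMEL (0.13) did not pass. CD14, a leukocyte marker, rose on knockdown (0.85 in DMSO, 0.70 in PLX4032). Of the fibroblast markers LUM, whose mean level was 9.69, rose on knockdown in DMSO (0.39), with PLX4032 in scrambled cells (0.42) and with both (0.44). COL1A2 fell in the same comparisons (-0.41, -0.77 and -0.70) and with PLX4032 in knockdown cells (-0.28). DCN rose with PLX4032 in scrambled (0.36) and knockdown cells (0.28) and with both (0.30), and COL1A1 rose with both (0.34). KRT14, a keratinocyte marker, fell with PLX4032 in scrambled cells (-0.30) and rose on knockdown in PLX4032 (0.38). The part of these markers in the changes below was not tested.

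Promoter sequence is shown for 1 gene of each complex, the one with the largest fall on knockdown in PLX4032. Only members that fell there and have a single start in the RefSeq table (GRCh38.p14) were considered. Each run is the 170 bases before the start, 5′ to 3′ on the strand of the gene. Capitals mark matches, on either strand, to CACGTG (the E-box of MITF and related factors), its variant CATGTG, the core of the NRF1 site GCATGCG, the core of the GABP site CCGGAAG, the core of the YY1 site AAGATGG and the core of the site of estrogen-related receptors AAGGTCA. The windows lie at chr2:201071831-201072000 (NDUFB3, + strand), chr11:112086703-112086872 (SDHD, + strand), chr1:46303528-46303697 (UQCRH, + strand), chrX:77899298-77899467 (COX7B, + strand) and chr4:674277-674446 (ATP5ME, - strand).
NDUFB3: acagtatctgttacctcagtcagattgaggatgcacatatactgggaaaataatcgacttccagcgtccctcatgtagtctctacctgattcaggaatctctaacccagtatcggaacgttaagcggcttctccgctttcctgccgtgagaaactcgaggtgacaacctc
SDHD: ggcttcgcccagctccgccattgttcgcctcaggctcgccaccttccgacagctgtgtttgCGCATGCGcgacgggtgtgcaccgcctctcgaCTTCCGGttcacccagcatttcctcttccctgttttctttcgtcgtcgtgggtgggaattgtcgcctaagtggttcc
UQCRH: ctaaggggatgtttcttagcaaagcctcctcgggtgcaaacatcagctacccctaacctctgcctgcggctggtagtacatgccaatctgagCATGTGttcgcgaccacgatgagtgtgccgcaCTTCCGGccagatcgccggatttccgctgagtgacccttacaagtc
COX7B: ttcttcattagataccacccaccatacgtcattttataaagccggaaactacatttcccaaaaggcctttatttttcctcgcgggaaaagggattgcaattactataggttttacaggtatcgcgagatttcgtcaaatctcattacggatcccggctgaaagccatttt
ATP5ME: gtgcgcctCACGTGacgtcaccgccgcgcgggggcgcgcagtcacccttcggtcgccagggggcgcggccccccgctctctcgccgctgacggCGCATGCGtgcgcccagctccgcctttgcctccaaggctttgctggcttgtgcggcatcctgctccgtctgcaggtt
SDHD and ATP5ME each hold the palindromic form of the NRF1 core, read as overlapping matches on both strands, and ATP5ME also holds an E-box. UQCRH holds the E-box variant, and UQCRH and SDHD hold a GABP core. The NDUFB3 and COX7B runs hold none of the 6 motifs.

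Over the whole 300-base windows (250 bases before the start and 50 after), 61 of the 70 subunit genes had sequence and were set beside 15843 protein-coding genes. The E-box CACGTG was in 7 of the 61 (11.5%) and in 10.9% of coding genes, and CATGTG was in 5 (8.2%) against 11.5%. The other 4 motifs were in larger shares of the subunit genes: CCGGAAG in 32.8% against 16.5%, AAGATGG in 27.9% against 7.9%, GCATGCG in 21.3% against 6.07% and AAGGTCA in 16.4% against 4.26%. Of the 44 with sequence that fell in either knockdown comparison, 5 held the E-box (11.4%), as did 2 of the other 17 (11.8%). AAGATGG was in 15 of the 44 (34.1%) and 2 of the 17 (11.8%), and AAGGTCA in 9 (20.5%) and 1 (5.88%). The order was the other way for GCATGCG, in 18.2% and 29.4%, and for CCGGAAG, in 31.8% and 35.3%, while CATGTG was in 9.09% and 5.88%. No test was made of these shares, and a match to such letters is a description and not a bound site.

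On knockdown of MITF in DMSO 30 of the 82 members fell and 0 rose, where 18.8% of all genes fell and 14.4% rose. The median change was -0.21, against 0.02 over all genes, and 69 of 82 estimates were below 0. Most members are bright on the array, and bright genes fell more often: of the 69 members above the median gene level 27 fell (39.1%, median -0.21), where 30.4% of all genes above that level fell (median -0.10). By complex, 12 of 35 fell in complex I, 2 of 3 in complex II, 4 of 8 in complex III, 3 of 17 in complex IV and 9 of 19 in complex V. The share in complex IV (17.6%) was below that of all genes, and the share in complex I (34.3%) was near that of bright genes. On the probe sets used each change was small: the largest, that of NDUFB9, was 1.41-fold. A second, dimmer probe set of NDUFV2, described below, was 1.55-fold lower (-0.63).

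The count rests on which arrays are used. It was 7 without scrambled DMSO array B, 11 without MITF hairpin DMSO array A and 5 without array B of the same group, while the median stayed between -0.22 and -0.17 whichever array was left out. In 62 of the 82 members both knockdown arrays lay below both scrambled arrays, which was so for 33.2% of all genes.

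In complex I, NDUFB9, an accessory subunit of the membrane arm, read 10.82 and 10.76 on the scrambled DMSO arrays and 10.29 and 10.29 on the knockdown arrays. The groups were separate (-0.50 ± 0.086, adjusted p = 0.00118). Among the 17 members named for this comparison, this fall alone held whichever array of these groups was left out. NDUFA9, an accessory subunit of the arm that juts into the matrix, fell by 0.39, and NDUFS7, a core subunit that carries the last iron-sulfur cluster before ubiquinone, fell by 0.34. Of the 6 core subunits measured 4 fell, NDUFS1 (-0.29), NDUFS3 (-0.31), NDUFS7 and NDUFV1 (-0.25), and of the 28 accessory ones 8 did. NDUFV2, also a core subunit, did not pass on the probe set used (-0.14) but fell on its dimmer one (-0.63). The highest estimate in complex I, that of NDUFA7 (0.09), did not pass the test.

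In complex II, which also serves the citric acid cycle, SDHA, the flavoprotein that oxidizes succinate, read 10.50 and 10.35 on the scrambled arrays and 10.09 and 10.02 on the knockdown arrays (-0.37 ± 0.083, adjusted p = 0.00602). SDHD, a membrane anchor, fell by 0.31, and SDHC, the other anchor, changed by -0.16 (adjusted p = 0.181).

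Complex III members that fell were UQCRB (-0.41), UQCRC2 (-0.39), UQCRH (-0.38) and UQCRC1 (-0.30). UQCRC1 and UQCRC2 are the core proteins, UQCRB takes part in binding ubiquinone, and UQCRH is the hinge protein that helps cytochrome c1 meet cytochrome c. In complex IV only COX7B (-0.41), COX7C (-0.35) and the supercomplex factor COX7A2L (-0.31) fell, although all 10 subunits in common use had estimates below 0. None of the 6 tissue isoforms passed the test, with values from -0.01 to 0.22.

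In ATP synthase the falls were mostly in the stalk and membrane part, 6 of 9, led by ATP5MK (-0.40), ATP5ME (-0.35), ATP5MJ (-0.35) and ATP5PB (-0.31). The fall of ATP5MK was that of the probe set used, and its second, dimmer one did not pass (-0.07). Of the 4 subunits of the F1 part, the catalytic head with its central stalk, ATP5F1A, the alpha subunit, fell (-0.29). ATP5IF1, which encodes an inhibitor of the enzyme's ATP hydrolysis, fell by 0.30. The c ring is encoded by 3 genes with the same mature protein: ATP5MC1 fell (-0.27), and ATP5MC3 (-0.21) and ATP5MC2 (-0.11) did not pass the test.

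**Figure D1:**
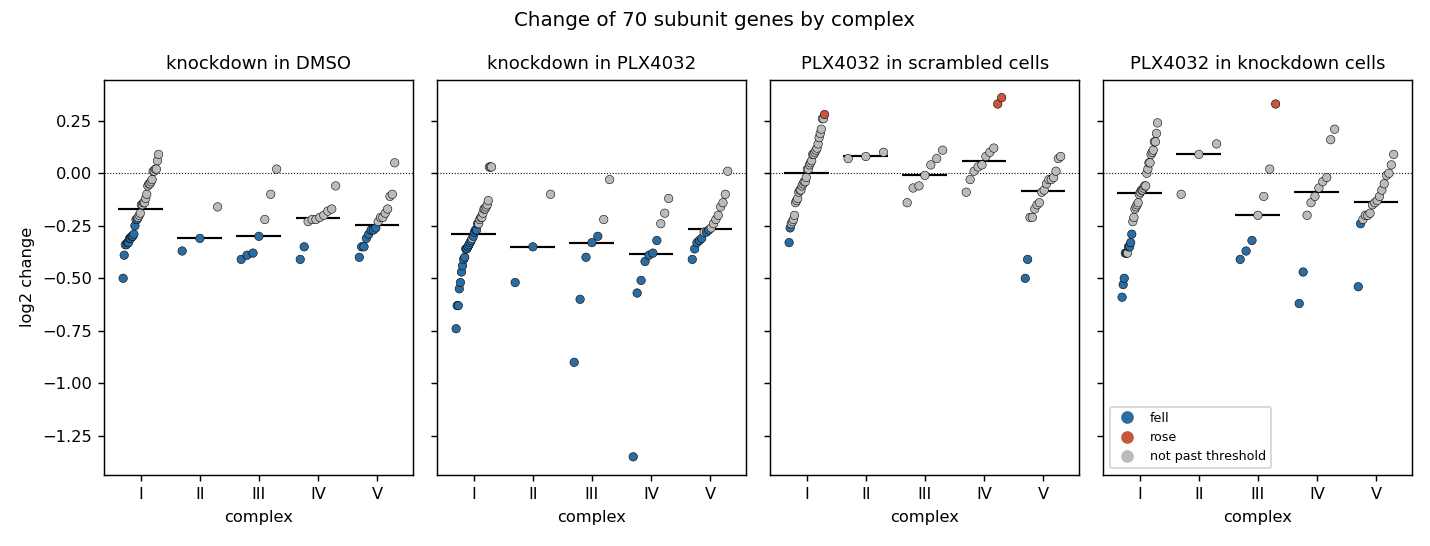
Log2 change of the 70 subunit genes in common use (y axis), by complex (x axis), in the 4 simple comparisons; each point is a gene, blue if it fell, red if it rose and grey if it did not pass the test, and bars are medians. Both knockdown comparisons lie mostly below 0, down to -1.35 for COX7B. With PLX4032 the 70 genes straddle 0 in scrambled cells (36 below 0, median -0.01). In knockdown cells 52 of them lie below 0 (median -0.11).

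In the presence of PLX4032 knockdown lowered 41 of 82 members and raised 0, where 15% of all genes fell and 13.5% rose. The median was -0.27 against 0.02 over all genes, and 72 estimates were below 0. Above the median gene level 40 of 69 members fell (58%, median -0.30), against 24.2% of all such genes (median -0.04). By complex, 20 of 35, 2 of 3, 5 of 8, 7 of 17 and 7 of 19 fell in complexes I to V. All 41 were subunits in common use, and the other 12 members had a median of 0.03. Most of those 12 are dim, and of the 13 members below the median gene level 1 fell, so class and brightness cannot be told apart here. The count was 15 without scrambled PLX4032 array A and 24 without MITF hairpin PLX4032 array A, with medians of -0.22 and -0.24. Both knockdown arrays lay below both scrambled arrays for 64 members (29.8% of all genes).

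COX7B, a small subunit of cytochrome c oxidase, had the largest change of any member. It read 9.97 and 9.84 on the scrambled PLX4032 arrays and 8.50 and 8.60 on the knockdown PLX4032 arrays, 2.56-fold lower (-1.35 ± 0.11, adjusted p = 3.55e-06). The groups were far apart beside the spread within them. UQCRH followed, with 6.53 and 6.70 against 5.55 and 5.88, 1.87-fold lower (-0.90 ± 0.11, adjusted p = 0.000135).

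NDUFB3, an accessory subunit of complex I, read 7.69 and 7.26 on the scrambled arrays and 6.51 and 6.95 on the knockdown arrays. The groups did not overlap, but both were wide (-0.74 ± 0.16, adjusted p = 0.0043), and the call was lost without scrambled PLX4032 array A (-0.53, adjusted p = 0.058). NDUFAB1, the mitochondrial acyl carrier protein, which also serves fatty acid and lipoic acid synthesis, fell by 0.63, as did NDUFA8. UQCRC1 fell by 0.60, COX7A2 by 0.57, NDUFA1 by 0.55, SDHD by 0.52, COX7C by 0.51, COX6B1 by 0.42, UQCR10 by 0.40, SDHA by 0.35 and UQCR11 by 0.33. Of ATP synthase, ATP5ME fell by 0.41, ATP5F1D by 0.36, ATP5PO, the subunit that joins the head to the peripheral stalk, by 0.33 and ATP5F1A by 0.32.

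The knockdown comparisons in DMSO and in PLX4032 share no array. Of the members, 19 fell in both, which is 63.3% of the 30 and 46.3% of the 41. Over all genes 9.71% did so, which is 51.7% of those that fell in DMSO and 64.7% of those that fell in PLX4032. They were NDUFA2, NDUFA9, NDUFA12, NDUFAB1, NDUFB9, NDUFS1, NDUFS7 and NDUFV1 of complex I, SDHA and SDHD, UQCRC1 and UQCRH, COX7B and COX7C, and ATP5F1A, ATP5MC1, ATP5ME, ATP5MJ and ATP5PO. For 65 members both estimates were below 0 (31.7% of all genes). Across the 70 subunit genes the changes of the comparisons had a Pearson r of 0.39, against 0.64 across all genes, a description only, since genes are not independent replicates and share the arrays.

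Inhibition of BRAF alone changed few members, and in both directions. In scrambled cells 4 members fell and 4 rose with PLX4032, fewer than the background of 16.8% and 17.3% of all genes. The median was -0.01 (all genes 0.05), and 43 of 82 estimates were below 0. Above the median gene level 4 of 69 members fell (5.8%) and 3 rose (4.35%), against 26.6% and 22.5% of all such genes. COX6C (0.36), COX7B (0.33), NDUFA1 (0.28) and COX6B2 (0.27) rose. ATP5MK (-0.50), ATP5F1D (-0.41), NDUFV2 (-0.33) and NDUFAB1 (-0.26) fell. On their dimmer probe sets, described below, ATP5MK did not pass (-0.06) and NDUFV2 fell by more (-1.05). COX6C encodes a supernumerary subunit of cytochrome c oxidase, and it read 9.96 and 10.06 with DMSO and 10.37 and 10.38 with PLX4032. COX6B2, a testis isoform, was dim, with 3.55 and 3.58 against 3.85 and 3.82.

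All 8 of these calls were lost when 1 or another array was left out. The falls numbered 1 without scrambled DMSO array B and 0 without scrambled PLX4032 array B; the rises numbered 0 without scrambled DMSO array A, and 2 and 1 without scrambled PLX4032 arrays A and B. For members that did not pass, the intervals bound the change: SDHA changed by 0.07 (95% interval -0.12 to 0.25), COX4I1, the common form of a regulatory subunit of complex IV, by 0.10 (-0.09 to 0.28) and ATP5F1B, the catalytic beta subunit, by -0.15 (-0.33 to 0.04).

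In knockdown cells PLX4032 lowered 16 members and raised 1, where 15.1% of all genes fell and 18.6% rose, with a median of -0.08 (all genes 0.04). Above the median gene level 15 of 69 members fell (21.7%), close to the 24.1% of all such genes, and 0 rose, where 27.2% of such genes did. The falls were in complex I (9 of 35), complex III (3 of 8), complex IV (2 of 17) and complex V (2 of 19), and none was in complex II. On the probe sets used, COX7B (-0.62), NDUFAB1 (-0.59), ATP5F1D (-0.54), NDUFV2 (-0.53), NDUFA8 (-0.50) and COX7A2 (-0.47) had the largest falls. The dimmer NDUFV2 probe set, described below, changed by -1.16. UQCRB was the member that rose (0.33), from 6.08 and 5.98 with DMSO to 6.25 and 6.46 with PLX4032, while it read 6.33 to 6.50 in scrambled cells. The count of falls was 9 without either knockdown DMSO array and 10 without MITF hairpin PLX4032 array A. ATP5F1D, NDUFAB1 and NDUFV2 fell in both PLX4032 comparisons, which share no array: they are 75% of the 4 and 18.8% of the 16. Over all genes 10.6% fell in both, which is 63% of the genes that fell in scrambled cells and 69.7% of those that fell in knockdown cells.

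The test of the difference between the PLX4032 changes called 4 members, all lower in knockdown cells, where 4.85% of all genes were called lower and 6.97% higher. Above the median gene level these were 5.8% of members, close to the 6.42% of all such genes, and 0 members were higher, where 10.2% of such genes were. COX7B read 9.45 and 9.70 with DMSO and 9.97 and 9.84 with PLX4032 in scrambled cells, and 9.07 and 9.26 with DMSO and 8.50 and 8.60 with PLX4032 in knockdown cells. It rose with the inhibitor in scrambled cells and fell in knockdown cells, and the difference was -0.94 ± 0.15 (adjusted p = 0.00215).

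NDUFA1, a small membrane subunit needed for complex I assembly, read 9.13 and 9.17, then 9.37 and 9.49, in scrambled cells, and 9.13 and 9.09, then 8.84 and 8.92, in knockdown cells (-0.51 ± 0.12, adjusted p = 0.0159). Its DMSO arrays thus overlapped between hairpins, and its PLX4032 arrays were apart. COX7A2, the widely expressed form of another small complex IV subunit, read between 9.58 and 9.71 on 6 arrays and 9.15 and 9.14 on the knockdown PLX4032 arrays (-0.51 ± 0.11, adjusted p = 0.0109). NDUFA8, an accessory complex I subunit, read 9.40 to 9.67 on the other 6 arrays and 8.89 and 9.01 with both perturbations (-0.44 ± 0.12, adjusted p = 0.0351). UQCRH had a difference of -0.52 that did not pass (adjusted p = 0.0671). The count was 2 without scrambled PLX4032 array B, 1 without MITF hairpin DMSO array A and 2 without its array B, and COX7B was called throughout, while NDUFA8 lost its call in 7 of the 8 fits that left out an array.

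**Figure D2:**
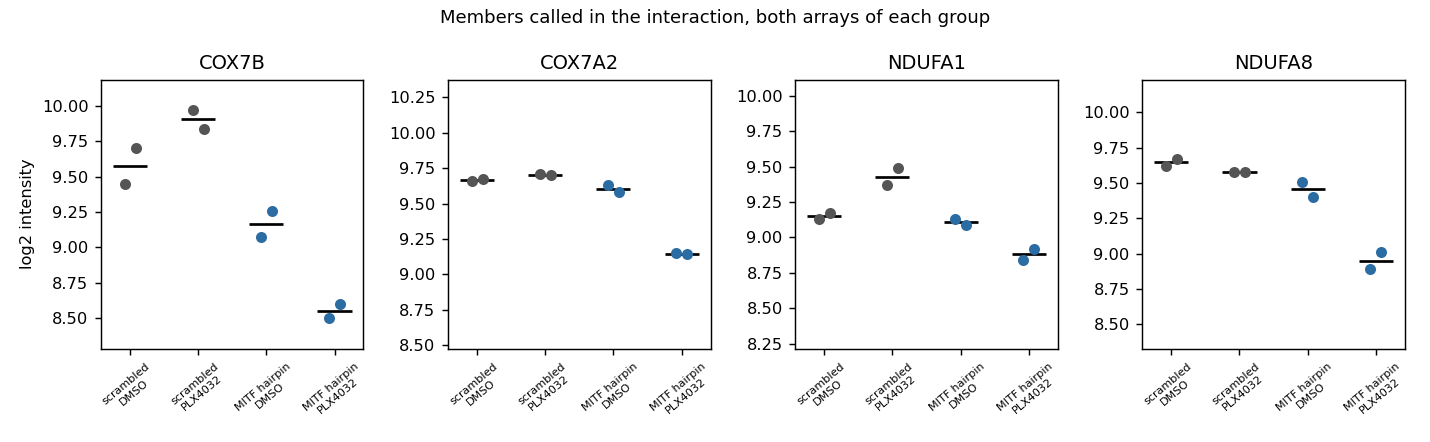
Log2 intensity (y axis, of equal span in each panel) of COX7B, COX7A2, NDUFA1 and NDUFA8 in the 4 groups (x axis); points are single arrays, grey for scrambled and blue for MITF hairpin cells, and bars are group means of 2 arrays. In each gene the knockdown PLX4032 arrays are the lowest, at 8.50 and 8.60 for COX7B.

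**Figure D3:**
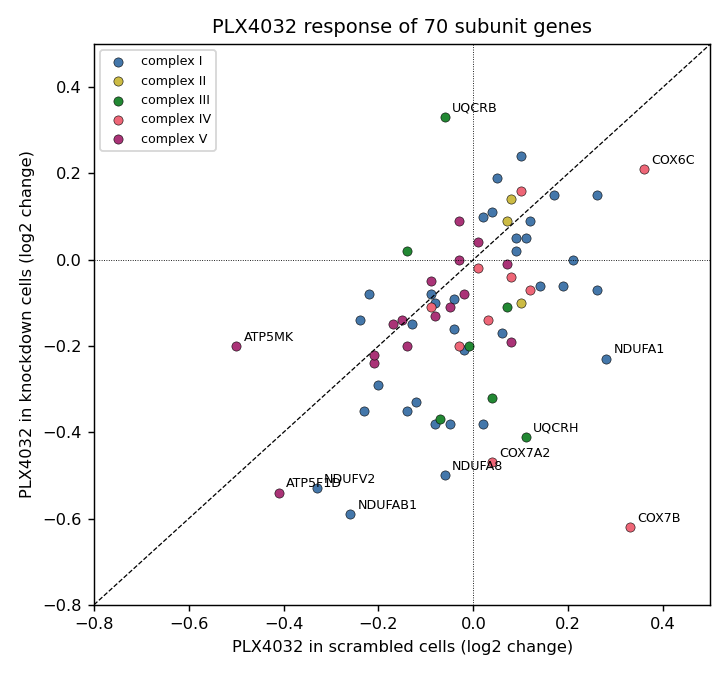
Log2 change with PLX4032 in scrambled cells (x axis) and in knockdown cells (y axis) for the 70 subunit genes, coloured by complex; the dashed line marks equal change. COX7B lies farthest below the line, with 0.33 and -0.62, and UQCRB is above it, with -0.06 and 0.33.

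Cells with both perturbations were compared with untreated scrambled cells. Of the 82 members 44 fell and 1 rose, where 21.5% of all genes fell and 27.1% rose, with a median of -0.28 against 0.08. Above the median gene level 41 of 69 fell (59.4%) and 0 rose, against 35% and 28.7% of all such genes. By complex, 17 of 35, 2 of 3, 6 of 8, 6 of 17 and 13 of 19 fell in complexes I to V. This comparison shares arrays with those above and is given for its own values.

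COX7B was 2.04-fold lower (-1.03 ± 0.11). NDUFAB1 read 9.36 and 9.50 on the untreated arrays, 9.22 and 9.11 with PLX4032, 9.13 and 9.13 with the MITF hairpin and 8.51 and 8.57 with both. It stepped down with each perturbation, to 1.86-fold lower with both (-0.89 ± 0.086, adjusted p = 7.33e-06), and its interaction did not pass (-0.33, adjusted p = 0.12). ATP5F1D, the delta subunit in the central stalk of ATP synthase, read 10.18 and 10.16, 9.87 and 9.64, 9.94 and 9.93, and 9.57 and 9.23 in the same order, and was 1.70-fold lower with both (-0.77 ± 0.12, adjusted p = 0.000221).

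On the probe sets used, UQCRH (-0.79), NDUFB3 (-0.72), NDUFA8 (-0.69), UQCRC1 (-0.67) and NDUFV2 (-0.67) came next. The dimmer NDUFV2 probe set, described below, changed by -1.79, more than COX7B did. In complex IV COX7A2 (-0.52), COX7C (-0.48) and COX5B (-0.41) fell after COX7B, and COX4I1 (-0.02), COX6C (-0.03) and COX6A1 (-0.18) did not pass. Besides ATP5F1D, the F1 genes ATP5F1A (-0.53) and ATP5F1B (-0.35) fell, and ATP5F1C, the gamma subunit, did not pass (-0.21). Of the c ring genes ATP5MC1 (-0.49) and ATP5MC3 (-0.34) fell, and ATP5MC2 (-0.02) did not pass. COX6B2 was the member that rose (0.38).

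**Figure D4:**
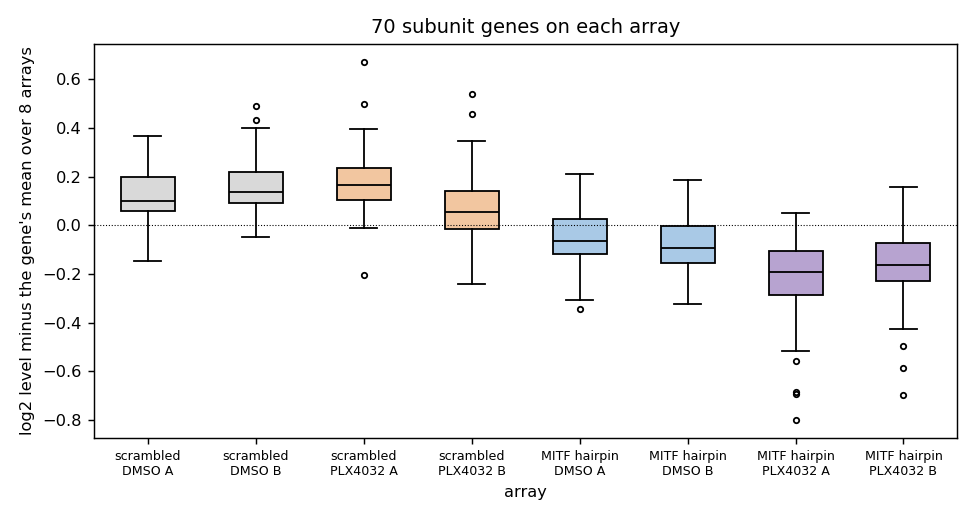
Level of the 70 subunit genes on each array (x axis), as the log2 level minus the mean of the gene over 8 arrays (y axis); boxes span the quartiles, with the median as a line, whiskers reach the last value within 1.5 box lengths and circles lie beyond. The 4 scrambled arrays have medians from 0.06 to 0.17 and the 4 knockdown arrays from -0.19 to -0.07.

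The median deviation of the 70 subunit genes was 0.10 and 0.14 on the scrambled DMSO arrays, 0.17 and 0.06 with PLX4032, -0.07 and -0.09 on the knockdown DMSO arrays and -0.19 and -0.16 with both. Scrambled arrays were all above knockdown arrays, the DMSO and PLX4032 arrays of scrambled cells overlapped, and the medians over all genes ran from -0.04 to 0.04. Within the scrambled PLX4032 group array A stood above array B by more than the arrays of any other group differed. Complex V had medians of 0.19 and 0.19 on the scrambled DMSO arrays and 0.11 and 0.01 with PLX4032, while complex IV had 0.11 and 0.11, then 0.26 and 0.09.

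For 6 members more than 1 probe set was measured, and the rule used the brightest. For 4 of them, NDUFV2, SDHC, SDHD and ATP5MK, the identifier of that probe set lay among those of genes on another chromosome: all 40 neighbours with a known place, 20 on each side, were on chromosome 19, 17, 1 and X, while the genes lie on chromosome 18, 1, 11 and 10. For the other 78 members the most common chromosome among the neighbours was that of the gene. This held for 98.3% of all 19128 probe sets with a known gene. The share of neighbours on it varied, down to 20 of 40 for NDUFB4 and 22 of 40 for SDHA. In each of the 4 genes the second, dimmer probe set lay among neighbours of the gene's own chromosome. Whether the brighter ones read related copies of these genes was not tested.

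NDUFV2 encodes a core subunit of the NADH-oxidizing module of complex I, and its probe sets differed most. The dimmer one read 8.39 and 8.40 on the scrambled DMSO arrays, 7.44 and 7.24 with PLX4032, 7.72 and 7.81 with the MITF hairpin and 6.60 and 6.62 with both. No groups overlapped. Its changes, with p-values adjusted over all probe sets, were -0.63 ± 0.09 on knockdown in DMSO (adjusted p = 0.000455), -1.05 ± 0.09 with PLX4032 in scrambled cells (adjusted p = 1.14e-05) and -1.79 ± 0.09 with both (adjusted p = 1.43e-07). The probe set used above gave -0.14, -0.33 and -0.67.

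SDHD gave like values on both: -0.31 and -0.29 on knockdown in DMSO and -0.52 and -0.50 in PLX4032. ATP5MK, whose falls on the brighter probe set were among the largest of complex V, had -0.07 on knockdown in DMSO and -0.06 with PLX4032 on the dimmer one, neither past the threshold, and -0.24 with both (adjusted p = 0.039). The dimmer SDHC probe set rose with PLX4032 in knockdown cells (0.31, adjusted p = 0.0373), and the brighter did not pass (0.14). With the dimmest probe set of every gene, an alternative chosen after seeing these values, 28 members fell on knockdown in DMSO and 38 in PLX4032.

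**Figure D5:**
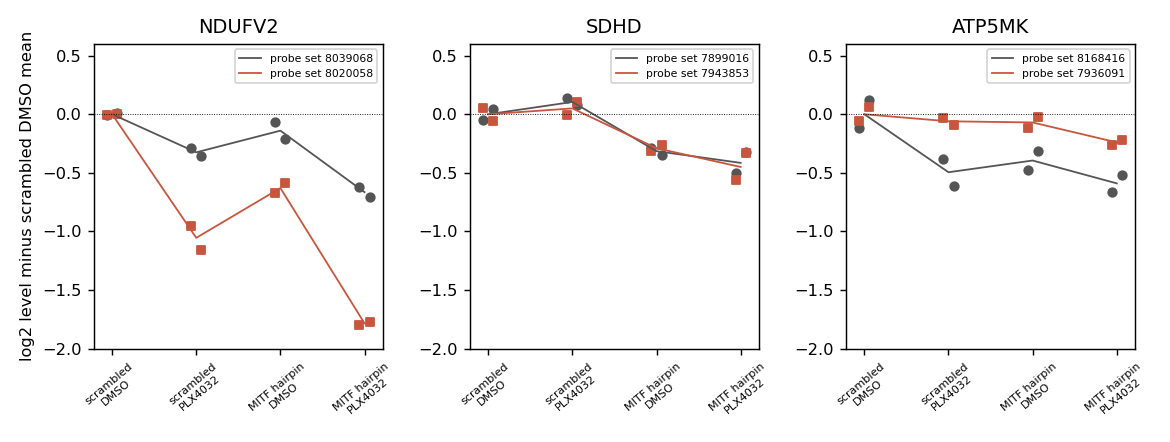
Log2 level relative to the scrambled DMSO mean (y axis) for both probe sets of NDUFV2, SDHD and ATP5MK in the 4 groups (x axis); circles and grey lines are the brighter probe set, squares and red lines the dimmer, points are arrays and lines join means. The NDUFV2 sets part to -0.67 and -1.79 with both perturbations, the SDHD sets run together, and the ATP5MK sets part from the first perturbation on.

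The electron carriers and assembly factors that serve these complexes were read from lists beside the members. CYC1, the cytochrome c1 subunit of complex III, whose symbol lies outside the prefixes, read 10.43 and 10.33 on the untreated arrays, 10.05 and 9.96 with PLX4032, 9.90 and 9.85 with the MITF hairpin and 9.44 and 9.34 with both. It fell in each comparison of groups (-0.51 on knockdown in DMSO, -0.38 with PLX4032 in scrambled cells, -0.99 with both). CYCS, the mobile cytochrome c, fell with PLX4032 in knockdown cells (-0.60) and did not pass in scrambled cells (-0.19), and the difference passed the test (-0.41). COXFA4, the complex IV subunit formerly named NDUFA4, fell on knockdown in PLX4032, from 8.87 and 8.85 to 8.39 and 8.34.

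Over all genes 18.8% fell on knockdown in DMSO, 15% in PLX4032 and 21.5% with both perturbations, and among those above the median level 30.4%, 24.2% and 35%. Of 13 complex I assembly genes 9 fell on knockdown in DMSO, 3 in PLX4032 and 10 with both perturbations, the largest fall with both being that of NDUFAF4 (-1.16). Of 17 complex IV assembly genes 8, 12 and 11 fell in the same comparisons, led by COX10, an enzyme of heme a synthesis, in the first (-0.61) and in PLX4032 (-0.55). Of 9 genes for complexes II and III 5, 4 and 5 fell, among them UQCC3 (-0.45, -0.40 and -0.96) and BCS1L, which inserts the Rieske protein (-0.40, -0.31 and -0.66). Some moved the other way: SDHAF2, which flavinates SDHA, rose with PLX4032 in scrambled (0.31) and knockdown cells (0.33). TTC19, a complex III factor, rose on knockdown in DMSO (0.69), and COA3, of complex IV, rose there by 0.26. Neither was called higher on knockdown in PLX4032. There the scrambled and knockdown means were 9.63 and 9.71 for TTC19, and 9.30 and 9.02 for COA3. Of 3 complex V assembly genes ATPAF2 fell on knockdown in PLX4032 (-0.33) and TMEM70 rose with PLX4032 in scrambled cells (0.30).

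Among 13 regulators of subunit transcription 8 fell and 0 rose on knockdown in DMSO, 7 fell and 1 rose with PLX4032 in scrambled cells, and 10 fell with both, where 18.8%, 16.8% and 21.5% of all genes fell. PPARGC1A read 8.17 and 8.20 on the untreated arrays, 9.63 and 9.46 with PLX4032, 5.66 and 5.09 with the MITF hairpin and 6.70 and 6.97 with both. It was the regulator that rose with the inhibitor, in scrambled (1.36) and in knockdown cells (1.46), where the subunit genes had medians of -0.01 and -0.11. TFB1M, a methyltransferase of mitochondrial ribosomal RNA, went from 8.97 and 9.06 to 6.99 and 6.88 with PLX4032 and to 5.68 and 6.35 with both, and TFAM, which packages and transcribes mitochondrial DNA, went from 8.94 and 8.99 to 8.19 and 8.20 and to 7.63 and 7.91. ESRRA, the estrogen-related receptor alpha that works with PPARGC1A, fell on knockdown by 0.31 in DMSO and by 0.72 in PLX4032.

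Of 88 protein-coding genes with these prefixes in RefSeq 79 were measured. NDUFC2, NDUFS5 and ATP5F1E, whose probe sets carry several gene symbols, were not used here, and none of the 13 subunit genes of mitochondrial DNA was analysed.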

How the data were processed

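RNA of 8 samples was hybridised to Affymetrix Human Gene 1.0 ST arrays. The authors deposited log2 values, 1 per probe set and array. The submitters' processing notes name RMA without a version; it corrects background, equalizes the distributions of the arrays and summarizes probes, so a shift shared by most genes is removed. Their genome build is not given in the sources used here. Without detection calls, signal over background is unknown; precision is limited by the number of arrays.

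The platform annotation (2016) gave exactly 1 symbol to 19158 of the 32321 probe sets, several to 1388 and none to 11775; 19128 matched RefSeq by Entrez identifier. The brightest probe set stood for each gene. limma 3.58.1 (R 4.3.3) lmFit and eBayes fitted a mean per group (4 residual and 6.73 prior degrees of freedom), with 6 two-sided contrasts adjusted over 18404 genes, and was tested on simulated data. Members, lists, motifs and rules were chosen with earlier results of these data known. Named by rule were MITF, PPARGC1A, per complex and contrast the 4 or fewer called members that changed most (and up to 2 called the other way), all members of complex II, isoforms and c ring genes, the interaction calls, and up to 3 genes of each companion list; the rest were named after their values were seen. Alternatives were a replicate block, a filter of the dimmest 40%, repeated quantile normalization, median centring, the mean of probe sets, an intensity trend, subunits only and leaving out each array; the dimmest probe set was added after seeing the data.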

Additional observations from a re-analysis of the deposited data

Results flagged for a closer look

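The PLX4032 change differed between knockdown and scrambled cells, by the interaction term of the limma fit, for 4 members: COX7B (-0.94), COX7A2 (-0.51), NDUFA1 (-0.51) and NDUFA8 (-0.44). COX7B and NDUFA1 rose with the inhibitor in scrambled cells, and COX7B, COX7A2 and NDUFA8 fell in knockdown cells, where NDUFA1 changed by -0.23 (adjusted p = 0.0528). COX7B kept its call whichever array was left out, while COX7A2 lost its call in 1 of the 8 such fits, NDUFA1 in 3 and NDUFA8 in 7.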

How the results depend on the processing

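No named member reversed direction under any alternative run. For each comparison but the interaction, calls of named members were checked only in fits that left out an array of the groups compared. Leaving out 1 array moved the counts of members that fell to 5 to 28 (knockdown in DMSO), 0 to 4 (PLX4032 in scrambled cells), 9 to 16 (PLX4032 in knockdown cells), 15 to 42 (knockdown in PLX4032), 33 to 45 (both perturbations) and 1 to 5 (interaction), and of those that rose to 0 to 0, 0 to 4, 0 to 3, 0 to 1, 1 to 2 and 0 to 1. Of the members named, 16 of 17, 8 of 8, 6 of 12, 7 of 18, 3 of 19 and 3 of 4 lost a call in such a fit. With PLX4032 in scrambled cells the falls were 7 without the dimmest 40% of genes, 7 with arrays centred on their median and 9 with an intensity trend, and the rises were 7 with repeated quantile normalization and 7 with the trend. With PLX4032 in knockdown cells the rises were 2 without the dimmest 40%, with repeated quantile normalization, with the trend and with the dimmest probe set (chosen after seeing the data). On knockdown in DMSO 1 member rose with centred arrays, and with both perturbations 0 rose without the dimmest 40% or among subunits only. Repeated quantile normalization gave 20 falls on knockdown in DMSO and 50 in PLX4032. The cause of these moves was not tested. The letters A and B are only shared labels (deviations correlated between -0.094 and 0.329); with them as a replicate block the falls were 29, 4, 15, 40, 44 and 5 and the rises 0, 4, 1, 0, 1 and 0, and ATP5F1A lost its call with PLX4032 in knockdown cells (adjusted p = 0.0623). Signal over background is unknown, which limits dim members such as COX6B2.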
